A study of Solanum tuberosum with 22 samples.

Results

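Catalase and dehydroascorbate reductase both act on the hydrogen peroxide system of plant cells. Catalase, found mainly in peroxisomes, splits hydrogen peroxide into water and oxygen, and in green tissue it removes the peroxide made in photorespiration. Dehydroascorbate reductase uses glutathione to turn dehydroascorbate back into ascorbate (vitamin C). Ascorbate is the electron donor of ascorbate peroxidase, so the enzyme ties the ascorbate pool to the glutathione pool. Potato tubers store ascorbate, and stolons, the underground shoots whose tips swell into tubers, are the tissue from which they form.

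The array carried 32448 spots, and 12 of them were listed in the platform annotation with catalase or dehydroascorbate reductase and no other gene. Of these, 6 were listed with CAT1, whose synonym is CAT2, and 6 with DHAR. Another 2 spots listed with CAT1 and a further gene were left out. The 12 spots fell into 6 pairs, each pair listed with the same expressed sequence tag accessions. A pair is called a clone here, and each gene had 3. The spots of a clone therefore share a sequence and are not independent measurements of the gene. Which stretch of the transcript a clone covers, and how far it picks up related transcripts, was not examined here.

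The samples came from potato (Solanum tuberosum) in 2 settings. Microtubers grew in continuous darkness in tissue culture on a sucrose medium without hormones and were taken 2, 5, 10, 20 or 30 days after induction was seen. Growth chamber plants gave stolons that had not formed a tuber and tubers of 1-5, 6-10, 11-15, 16-25 and 26-35 mm. Each group had 2 replicates, which were separate microtuber populations in culture and separate sets of 10 plants, grown one after the other, in the chamber. Every array set 1 sample against a pool of all stages of its own setting, so a value is a log2 ratio to that pool and 0 means a level equal to the pool. Levels of different spots cannot be set against each other on this scale. Stolon RNA was labelled as amplified cRNA and all other RNA as total RNA, so in any comparison with stolons the tissue and the amplification cannot be told apart.

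Of the spots, 52.0% to 65.7% had a value on a microtuber array and 33.1% to 48.9% on a growth chamber array, and 22 arrays in all limit the precision of every value. Replicates of a culture time correlated with an r of 0.60 to 0.79 over spots. Replicates of a growth chamber class were labelled with opposite dyes, and their deposited values correlated between -0.63 and -0.36. Replicate 2 of the growth chamber samples was therefore multiplied by -1, so that a positive value likely means a level above the pool. With that choice patatin, the main storage protein of the tuber, was higher in tubers than in stolons by 7.17 on the log2 scale on the 1 of its 6 spots that could be tested, a value that helped to set the direction. The dyes in the labels would have replicate 1 turned instead, so the direction is not settled. If a pool held its 6 classes in equal parts, which the labels do not state, no sample could exceed it more than 6-fold. In the direction used 413 values of replicate 1 and 46 of replicate 2 lay above that bound, and 2070 and 1781 lay below its inverse. With the direction turned these counts change places. On the microtuber arrays, whose direction was used as deposited, 2 values of replicate 1 and 4 of replicate 2 lay above the corresponding bound of 5-fold, and 282 and 286 below its inverse. Turning it swaps higher and lower in every growth chamber value below and leaves each p-value as it is. In culture no patatin spot had a value on any array, so this marker could not be used to check the microtubers. In such whole-tissue samples fewer cells of a type and less RNA per cell cannot be told apart.

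In microtubers CAT1 moved little. The clone with the clearest pattern, clone 2, was lower at 20 and 30 days than at 2 and 5 days by 0.41 and 0.49 on the log2 scale, but this difference rested on 1 array at 5 days. CAT1 clone 3 stayed close to the pool. DHAR had the wider movement: clones 2 and 3 both rose between 2 days and 5 and 10 days, and clone 2 fell again by 30 days.

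In replicate 1 the mean of the 2 spots of CAT1 clone 2 was -0.35 on day 2, 0.09 on day 10, -0.12 on day 20 and -0.28 on day 30, with no value on day 5. In replicate 2 it was -0.11 on day 2, 0.51 on day 5, 0.05 on day 10, -0.47 on day 20 and -0.37 on day 30. The single 5-day array was the highest of the 9, and the 4 late arrays overlapped in range with the 2-day arrays. The spots of this clone differed by a median of 0.018 within an array, against 0.0655 over all 786 such pairs of spots on the microtuber arrays.

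For late (20 and 30 days) against early times (2 and 5 days), 48.5% of the 19600 spots tested over the array passed an adjusted p of 0.05. A spot was tested when it had values on at least 80% of the arrays and on 1 or more in each group. Of the 6 CAT1 spots 4 were tested and 2 were lower, both of clone 2, a share close to that background. Spot 152782 averaged -0.30 at late times and 0.11 at early times, a change of -0.41 ± 0.13 (SE, adjusted p = 0.0261). Spot 153626 averaged -0.32 at late times and 0.17 at early times, a change of -0.49 ± 0.12 (adjusted p = 0.00982). The replicates did not move alike. In replicate 1, where the early value was the 2-day array alone, late minus early was 0.17 and 0.13, and in replicate 2 it was -0.58 and -0.66. Set against 2 days alone, an alternative chosen after seeing the data, the late times differed by -0.06 (adjusted p = 0.755) and -0.10 (adjusted p = 0.566), and no CAT1 spot was called, against 47.8% of all spots. Without the 5-day array of replicate 2 the clone could not be tested. Spot 152782 also lost its call without replicate 2 of 2, 20 or 30 days (adjusted p = 0.0682, 0.0645 and 0.0551).

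In tests of single pairs of times CAT1 clone 2 differed between 5 days, again 1 array, and the late times. The 20-day level was 0.76 and 0.85 below the 5-day level on its 2 spots (adjusted p = 0.0231 and 0.0124, with 24.5% of all spots called for this pair). At 30 days the spots differed from 5 days by -0.76 and -0.91 (adjusted p = 0.0218 and 0.00832, with 26.2% called). No pair of neighbouring times differed past the threshold on either spot, with changes at 5 days from 2 days of 0.70 and 0.78 (adjusted p = 0.0753 and 0.0504). In the test for any difference among the 5 times, which called 36.8% of all spots, the spots of clone 2 had adjusted p-values of 0.0489 and 0.0226. With the replicate number as a block, where 37.3% of all spots were called, these were 0.0627 and 0.0308.

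CAT1 clone 3 had values at every time. Spot 154260 lay between -0.06 and 0.24 in replicate 1 and between -0.40 and 0.00 in replicate 2. Spot 155104 lay between -0.18 and 0.08 in replicate 1 and between -0.49 and 0.21 in replicate 2. The ranges of the 2 replicates overlapped on both spots. Late minus early was 0.01 ± 0.15 (adjusted p = 0.947) and -0.17 ± 0.11 (adjusted p = 0.22). CAT1 clone 1 had no value in replicate 1. Its 7 values in replicate 2 ran from -0.38 to 0.00, and it was not tested in culture.

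DHAR clone 2 was highest at 5 and 10 days. The mean of its spots in replicate 1 was -0.56 on day 2, 0.57 on day 5, 0.44 on day 10, -0.11 on day 20 and -0.55 on day 30. In replicate 2 it was 0.06 on day 2, 0.71 on day 5, 0.74 on day 10, -0.16 on day 20 and -0.40 on day 30. All 4 arrays of 5 and 10 days lay above all 6 arrays of the other times. The 2-day arrays differed by more than the others of this clone, with an SD of 0.44 (n = 2).

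DHAR clone 3 had its lowest values at 2 days and its highest at 10 days. The mean of its spots in replicate 1 was -1.03 on day 2, 0.04 on day 5, 0.58 on day 10, 0.14 on day 20 and 0.10 on day 30. In replicate 2 it was -0.43 on day 2, 0.06 on day 5, 0.57 on day 10, 0.14 on day 20 and -0.01 on day 30. Both 2-day arrays lay below the other 8 arrays, and both 10-day arrays lay above them.

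**Figure D1:**
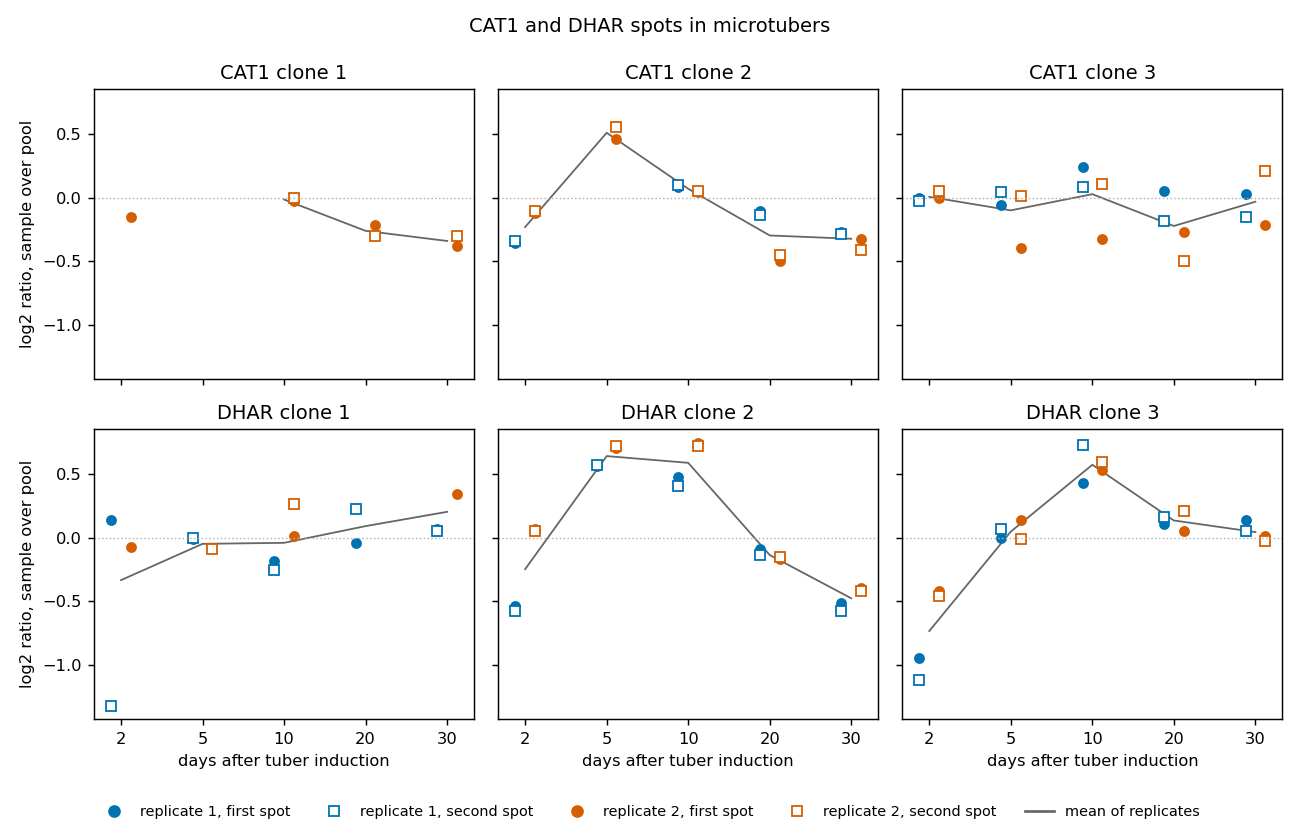
Log2 ratio of sample over pool (vertical axis) at each culture time in days (horizontal axis, times equally spaced) for every CAT1 and DHAR spot. Filled circles and open squares are the first and second spot of a clone, blue is replicate 1, orange is replicate 2 and the line joins the means of the available replicates. DHAR clones 2 and 3 lay between 0.41 and 0.75 on all arrays at 10 days, and CAT1 clone 2 had 1 array only at 5 days.

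Relative to 2 days, all 4 spots of DHAR clones 2 and 3 rose by 5 days and stayed higher at 10 days. At 5 days clone 2 was 0.87 ± 0.19 and 0.91 ± 0.20 above its 2-day level (adjusted p = 0.033 for both), and 5.49% of all spots were called for this pair of times. Clone 3 was 0.75 ± 0.17 and 0.81 ± 0.19 above its 2-day level (adjusted p = 0.0365 and 0.0411). At 10 days the rises over 2 days were 0.84 and 0.83 for clone 2 (adjusted p = 0.0113 and 0.0149) and 1.16 and 1.45 for clone 3 (adjusted p = 0.00136 and 0.000843), with 25.8% of all spots called. Clone 3 was thus between 0.75 and 1.45 higher at each later time than at 2 days, past the threshold each time (41.9% of all spots were called for 20 days and 40.6% for 30 days against 2 days).

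The clones parted at the late times. DHAR clone 2 fell by 0.76 and 0.79 at 20 days relative to 5 days (adjusted p = 0.0183 and 0.0189). It fell by 1.09 and 1.14 at 30 days on the same scale (adjusted p = 0.00292 and 0.00288). Relative to 10 days it fell by 1.07 and 1.06 at 30 days (adjusted p = 0.0142 and 0.0166, with 7.1% of all spots called). At 20 days the change from 10 days was -0.74 and -0.71 (adjusted p = 0.0693 and 0.0881), where 3.66% of all spots were called. With the replicate number as a block these had adjusted p = 0.0414 and 0.0443, where 4.99% of all spots were called. DHAR clone 3 changed by -0.41 and -0.65 at 30 days relative to 10 days (adjusted p = 0.182 and 0.0745). Between 20 and 30 days 0% of spots were called by limma's test, and 1 of the 9 tested CAT1 and DHAR spots, 155104 of CAT1 clone 3, had an unadjusted p under 0.05.

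As a result, late minus early had opposite signs in clones annotated to the same gene. Of the 6 DHAR spots 5 were tested and 4 were called, 2 lower and 2 higher, against 24.3% of all spots lower and 24.2% higher. DHAR clone 2 was lower at late times by 0.49 ± 0.14 and 0.51 ± 0.14 (adjusted p = 0.0136 and 0.0138), with negative values in both replicates of both spots. DHAR clone 3 was higher at late times by 0.38 ± 0.12 and 0.48 ± 0.14 (adjusted p = 0.0244 and 0.0153), with positive values in both replicates of both spots. Spot 151695 lost its call without replicate 1 of 2, 5, 20 or 30 days (adjusted p = 0.0576 to 0.077). Averaged over the complete spots of the gene, DHAR changed by -0.04 ± 0.12 (adjusted p = 0.801 over 380 gene means), so a mean over its spots shows neither movement. Against 2 days alone only clone 3 was called, at 0.76 and 0.89 (adjusted p = 0.00221 and 0.00177), while clone 2 differed by -0.06 on each spot.

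DHAR clone 1 gave few values. Spot 131759 had 0.14, -0.01, -0.18, -0.04 and 0.07 in replicate 1 from the first time to the last, and -0.07, 0.01 and 0.34 in replicate 2 at 2, 10 and 30 days. Its late minus early change was 0.07 ± 0.14 (adjusted p = 0.697). Spot 133618 had -1.32 at 2 days in replicate 1, where the other spot of the clone had 0.14. These spots thus disagreed by 1.46 on the same array, the widest gap of any member clone in culture, and spot 133618 had too few values to be tested.

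In growing plants the clearest difference of either gene was in catalase. CAT1 clone 2 was likely 8.41-fold lower in tubers than in stolons on one spot and 8.78-fold on the other, and every tuber array lay below both stolon arrays. CAT1 clone 1, with fewer values, was lower in tubers on every array that had a value. In CAT1 clone 3 and DHAR clones 2 and 3 the tuber and stolon values overlapped, and DHAR clone 1 had no tuber value.

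The mean of the spots of CAT1 clone 2 in tubers of replicate 1 was -1.25 at 1-5 mm, -1.92 at 6-10 mm, -1.86 at 11-15 mm, -1.81 at 16-25 mm and -2.32 at 26-35 mm, against 0.02 in the stolons. In tubers of replicate 2, after turning, it was -2.91 at 1-5 mm, -3.50 at 6-10 mm, -4.86 at 11-15 mm, -5.08 at 16-25 mm and -4.29 at 26-35 mm, against 0.23 in the stolons. The 10 tuber arrays and the 2 stolon arrays did not overlap. Within every tuber class replicate 2 was lower than replicate 1. At 16-25 mm in replicate 2 the 2 spots of the clone had -4.41 and -5.74, their widest disagreement.

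**Figure D2:**
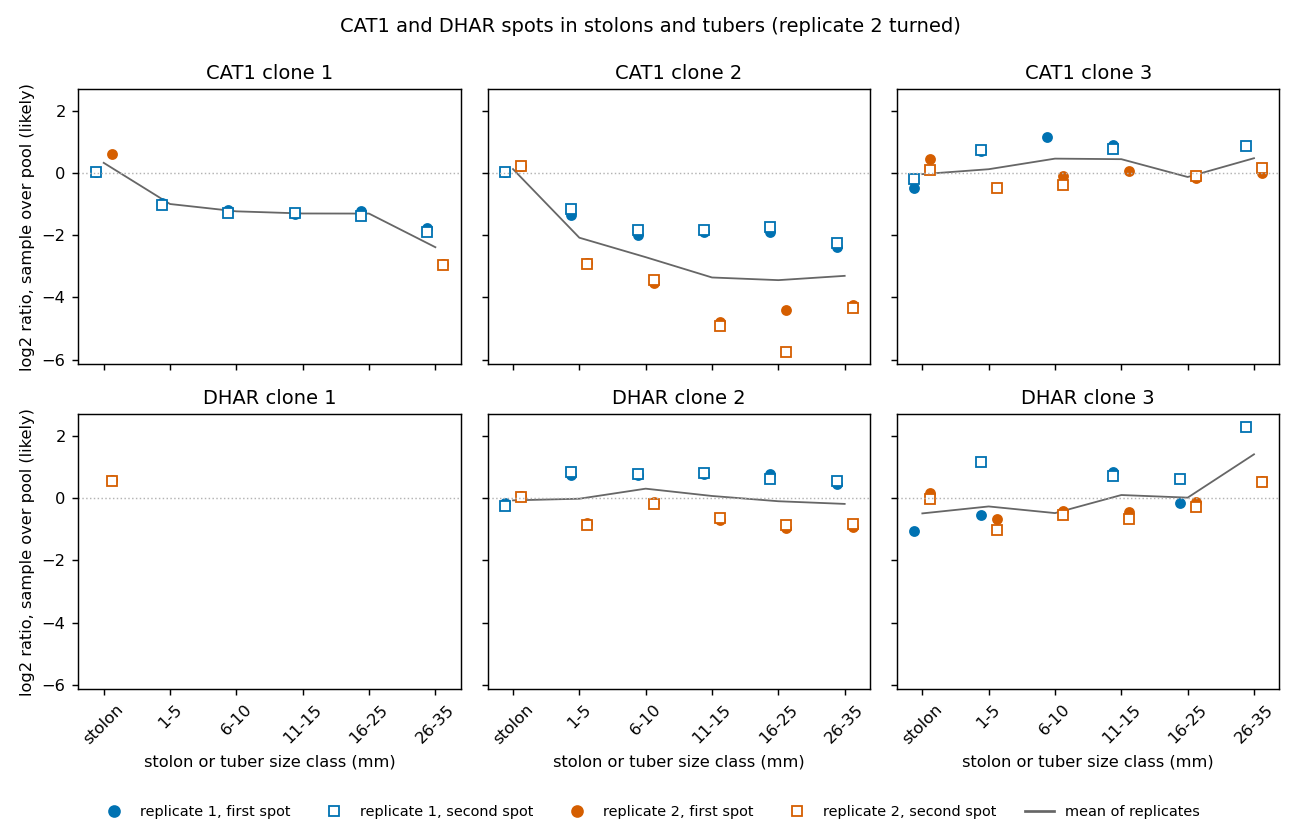
Log2 ratio of sample over pool (vertical axis, likely direction) in stolons and 5 tuber size classes in mm (horizontal axis) for every CAT1 and DHAR spot, with replicate 2 multiplied by -1. Filled circles and open squares are the first and second spot of a clone, blue is replicate 1, orange is replicate 2 and the line joins the means of the available replicates. CAT1 clone 2 lay between -1.15 and -5.74 on the tuber arrays, and the replicates of DHAR clone 2 lay on opposite sides of 0 in each tuber class.

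For tubers, taken as the mean of the 5 size classes, against stolons, 22.3% of the 10415 spots tested were called, 14.3% higher and 8.06% lower. Of the 6 CAT1 spots 2 were tested and 1 was called. Spot 152782 averaged -2.94 in tubers and 0.13 in stolons, a change of -3.07 ± 0.93 (SE, adjusted p = 0.0483), and was -1.93 in replicate 1 and -4.21 in replicate 2. Spot 153626 averaged -3.02 in tubers and 0.12 in stolons, a change of -3.13 ± 1.16 (adjusted p = 0.0899), and was -1.78 in replicate 1 and -4.49 in replicate 2. A more negative change was found for 1.02% of all tested spots in the case of spot 152782 and for 0.96% in the case of spot 153626. With the replicate as a block the same changes had standard errors of 0.50 and 0.64 and adjusted p-values of 0.0024 and 0.00685, and 39.6% of all spots were called. That block gives stolons and tubers the same shift between replicates. For this clone replicate 2 lay below replicate 1 in every tuber class but above it in the stolons (0.23 against 0.02). The smaller standard errors thus rest on a shift that the stolons did not share. The call of spot 152782 stood in 3 of the 12 fits that left out 1 array, those without 11-15 mm of either replicate or 16-25 mm of replicate 1. It was lost in the other 9, with adjusted p = 0.197 and 0.302 without the stolons of replicate 1 or 2, although the change itself stayed between -3.36 and -2.78. Spot 153626 was called without 16-25 mm of replicate 1 (adjusted p = 0.0411).

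Single tuber classes differed from the stolon by -2.15 to -3.85 on the spots of CAT1 clone 2, with adjusted p-values from 0.0975 to 0.439 (of all spots, 7.35%, 8.8%, 13.6%, 10.8% and 13.1% were called for these pairs, in order of size). With the replicate block the range was 0.00646 to 0.101 and 9 of the 10 comparisons of a class with the stolon were called, where 22.7%, 24%, 28.4%, 25.4% and 28.3% of all spots were called in the same order. In the test for any difference among the 6 classes, which called 3.86% of all spots, the clone's spots had adjusted p-values of 0.474 and 0.647. With the block that test called 15.3% of all spots and gave 0.0364 and 0.0786 for the clone. These block values carry the limit for stolons given above. Neighbouring tuber classes were not told apart, with adjusted p-values of 1 for each pair on both spots. The fit without the block did not use the pairing of tuber classes by replicate, and it called 0% of all spots for each of these pairs. These p-values are thus no sign of equal levels. The clone's class means ran in order from 0.12 in stolons through -2.08 at 1-5 mm and -2.71 at 6-10 mm to -3.31 at 26-35 mm, -3.36 at 11-15 mm and -3.44 at 16-25 mm, with SDs of 1.12 to 2.31 in the tuber classes (n = 2 each).

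Over the 6 classes the mean ratio of CAT1 clone 2 to the pool was 0.295, on a linear scale. The median spot of the array had 1.01, with quartiles of 0.766 and 1.31, and 0.581% of 12902 spots had a lower mean ratio than this clone. With the direction turned the clone's mean ratio was 7.12, and 1.57% of the spots had a higher one. A pool of the 6 classes in equal parts would give a mean ratio near 1, and this clone was far from that in either direction. The size of its difference between tubers and stolons is uncertain to that extent. CAT1 clone 1 had 0.53 and, turned, 2.55, while CAT1 clone 3 had 1.18 and DHAR clones 2 and 3 had 1 and 1.16.

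CAT1 clone 1 was not tested because replicate 2 had a value for 1 tuber class only. Spot 137140 was -0.97, -1.18, -1.32, -1.22 and -1.78 from the smallest to the largest class in tubers of replicate 1, against 0.03 in the stolons. In replicate 2 it was -2.92 in tubers of 26-35 mm and 0.62 in the stolons. Spot 138999 ran from -1.03 to -1.89 in tubers of replicate 1, against 0.03 in the stolons, and was -2.95 at 26-35 mm in replicate 2. All tuber values of the clone thus lay below its stolon values. Without the requirement for values on 80% of arrays the changes were -1.73 ± 0.45 (adjusted p = 0.0696) and -1.51 ± 0.60 (adjusted p = 0.196).

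CAT1 clone 3 differed from these. In replicate 1 its tuber values were 0.71 to 1.16 on spot 154260 and 0.72 to 0.86 on spot 155104, against -0.49 and -0.18 in the stolons. In replicate 2 they were -0.16 to 0.06 and -0.47 to 0.17, against 0.43 and 0.09 in the stolons. Tubers lay above the stolon in replicate 1 and mostly below it in replicate 2. Without the 80% requirement the changes were 0.34 (adjusted p = 0.679) and 0.23 (adjusted p = 0.748).

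A list of photosynthesis transcripts held spots that were also lower in tubers. It held PSBR, a photosystem II protein, the oxygen-evolving proteins MSP-II and OEE2, and the chlorophyll-binding protein cab1, on 30 spots. Of 13 spots tested for tubers against stolons 4 were lower and 0 higher, with a median change of -2.16 where all spots had 0.0842, and 8.06% of all spots were lower. The called spots were 3 of MSP-II and 1 of PSBR, and neither tested spot of OEE2 was called. With the replicate block 9 were lower, against 17.9% of all spots. The mean over the 13 spots lay between -2.77 and -0.04 on the 10 tuber arrays, against 0.13 and 0.43 on the 2 stolon arrays. In tubers of 1-5 mm it was -0.04 in replicate 1 and -2.07 in replicate 2, where CAT1 clone 2 had -1.25 and -2.91. No spot of cab1 had enough values to be tested. The part of green tissue in the catalase difference was not tested. Stolons were also the class whose RNA was amplified.

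DHAR gave no consistent difference between tubers and stolons. Spot 146279 of DHAR clone 2 was 0.73, 0.73, 0.77, 0.77 and 0.45 from the smallest to the largest class in tubers of replicate 1, against -0.15 in the stolons. In replicate 2, after turning, it was -0.81, -0.12, -0.70, -0.95 and -0.93, against 0.07 in the stolons. The tubers lay above the stolon in every class of replicate 1 and below it in every class of replicate 2. Spot 147123 had the same pattern, with 0.55 to 0.84 in tubers of replicate 1 and -0.86 to -0.19 in tubers of replicate 2. As deposited, the tuber ratios of this clone were positive on all 10 arrays although the dyes were exchanged between the replicates.

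Of the 6 DHAR spots 4 were tested for tubers against stolons and 0 were called by limma's test, also at an unadjusted p of 0.05. DHAR clone 2 changed by 0.04 ± 0.64 (adjusted p = 0.976) and 0.14 ± 0.63 (adjusted p = 0.903). In replicate 1 these changes were 0.84 and 0.99, and in replicate 2 they were -0.77 and -0.72. Such opposition was common, since 37.4% of 10113 spots with both values had opposite signs in the replicates and 13.5% did so with each change over 0.5 in size. Over those spots the changes of the 2 replicates correlated with an r of 0.50, given as a description because all spots share the same arrays.

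DHAR clone 3 was scattered. Spot 151695 was -0.56 at 1-5 mm, 0.84 at 11-15 mm and -0.15 at 16-25 mm in tubers of replicate 1, against -1.06 in the stolons. In replicate 2 it was -0.66, -0.43, -0.47, -0.14 and 0.53 from the smallest to the largest class, against 0.17 in the stolons. Tubers of 26-35 mm were thus the highest class of replicate 2. Spot 152539 was 1.15 at 1-5 mm, 0.70 at 11-15 mm, 0.62 at 16-25 mm and 2.28 at 26-35 mm in tubers of replicate 1, with no stolon value. In replicate 2 it was -1.02, -0.54, -0.69, -0.29 and 0.51 from the smallest to the largest class, against -0.03 in the stolons. At 1-5 mm in replicate 1 the 2 spots of the clone differed by 1.71. The changes for tubers against stolons were 0.35 ± 0.46 (adjusted p = 0.632) and 0.25 ± 1.02 (adjusted p = 0.888, from 1 stolon array). The second of these was -0.37 with the replicate as a block (adjusted p = 0.491). DHAR clone 1 had a single array in the growth chamber samples, the stolons of replicate 2, with 0.58 and 0.53.

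**Figure D3:**
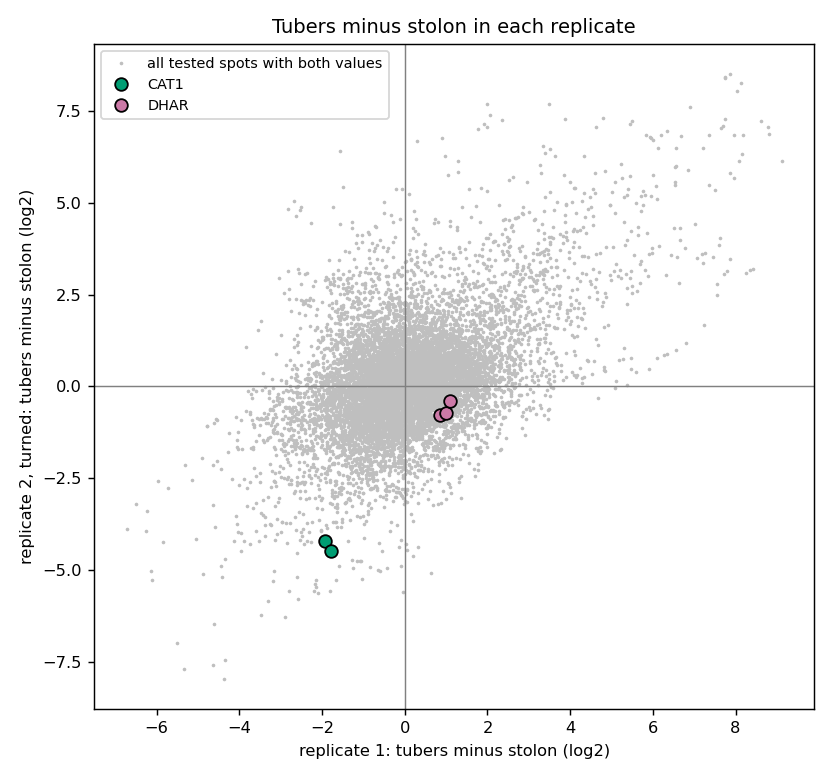
Tubers minus stolon (log2) in replicate 1 (horizontal axis) and in replicate 2 after turning (vertical axis) for 10113 tested spots in grey, CAT1 spots in green and DHAR spots in pink. The 2 CAT1 spots, both of clone 2, lay at -1.93 and -1.78 in replicate 1 and at -4.21 and -4.49 in replicate 2, and the 3 DHAR spots with both values lay on the positive side in replicate 1 and on the negative side in replicate 2.

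Between large tubers (16-25 and 26-35 mm) and small tubers (1-5 and 6-10 mm) none of the 10415 spots was called by limma's test (0% of spots, with 757 at an unadjusted p of 0.05). CAT1 clone 2 averaged -3.23 in large tubers and -2.45 in small tubers on spot 152782, a change of -0.78 ± 0.85 (adjusted p = 1). On spot 153626 it averaged -3.52 in large tubers and -2.34 in small tubers, a change of -1.18 ± 1.06 (adjusted p = 0.998). Both replicates of both spots were lower in large tubers. Fitted without the stolon arrays and with the replicate as a block, the same changes had standard errors of 0.23 and 0.36 and adjusted p-values of 0.0457 and 0.0478, where 19.6% of all spots were called. DHAR clone 2 changed by -0.29 and -0.28 and DHAR clone 3 by 0.72 and 1.02 (adjusted p = 1, 1, 0.963 and 0.976). For clone 3 both replicates of both spots were higher in large tubers, by 0.30 to 0.89. In replicate 1, however, neither spot had a value at 6-10 mm. Spot 151695 also had none at 26-35 mm there, so its change in replicate 1 set 1 array against 1 array. Spot 152539 in replicate 1 was 1.15 at 1-5 mm, 0.62 at 16-25 mm and 2.28 at 26-35 mm. Its rise there rested on the 26-35 mm array. In the fit with the stolon arrays and without the block, no tested DHAR or CAT1 spot had an unadjusted p under 0.05. That fit did not use the pairing of the tuber classes by replicate.

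**Figure D4:**
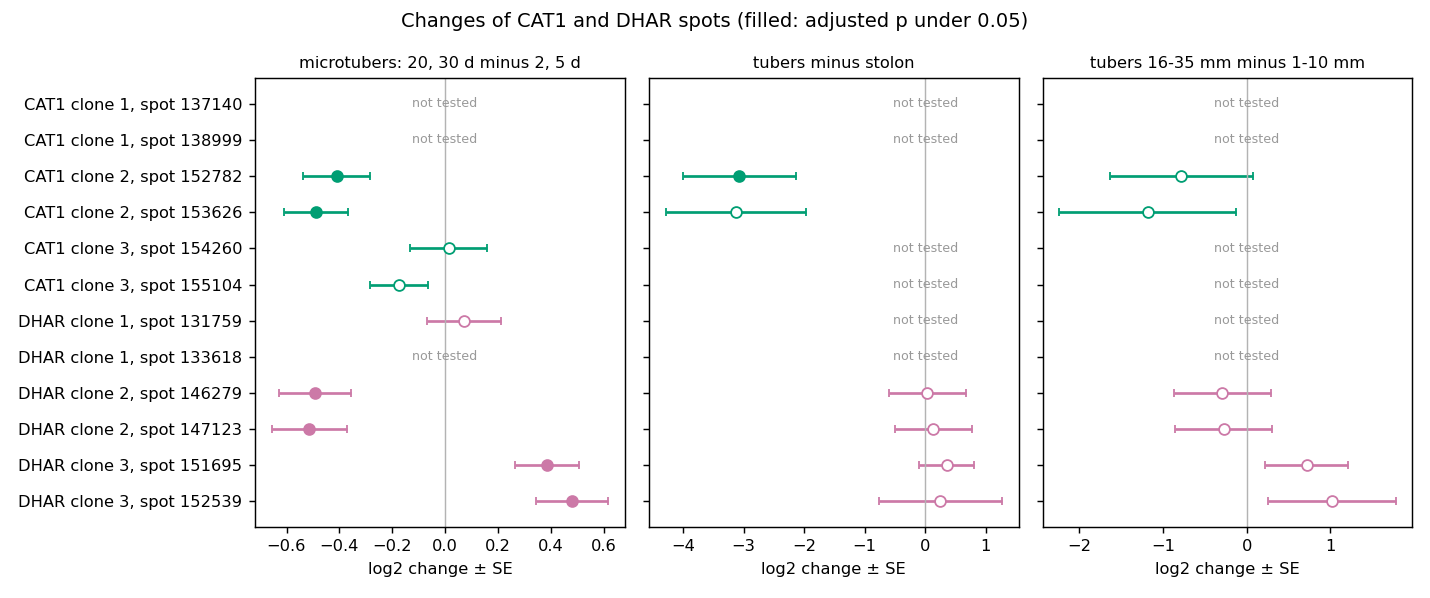
Log2 change with its standard error (horizontal axes, scales differ) for each CAT1 spot in green and each DHAR spot in pink (rows), for late minus early microtubers, tubers minus stolon and large minus small tubers. Filled points have an adjusted p under 0.05 and spots with too few values are marked as not tested. DHAR clone 2 was lower and DHAR clone 3 higher at the late culture times, and spot 152782 of CAT1 was the 1 member called in the growth chamber comparisons.

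Whether the change with time in culture differed from the change with size in plants was tested over all 22 arrays, where 4.06% of 11181 spots were called. This fit gave each spot 1 spread for both settings and did not use the pairing of the growth chamber samples. Fitted alone, the typical SD of a spot was 0.16 in culture and 0.44 in plants. None of the 4 CAT1 and 4 DHAR spots tested was called, which is no sign that the changes were alike. The difference, late minus early in culture less large minus small in plants, was 0.37 and 0.69 for CAT1 clone 2 (adjusted p = 0.874 and 0.802) and 0.71 and -0.51 for CAT1 clone 3. It was -0.20 and -0.24 for DHAR clone 2 and -0.33 and -0.54 for DHAR clone 3, with adjusted p-values from 0.729 to 0.892. These values depend on the direction of the growth chamber ratios. With it turned they were -1.19 and -1.67 for CAT1 clone 2 and 1.10 and 1.50 for DHAR clone 3, and no spot was called.

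Other redox genes on single-gene spots, matched by symbol and leaving aside DHAR2, were AOX, the alternative oxidase of mitochondria, GRX2, a glutaredoxin, PPO, a polyphenol oxidase, RBOHC, a respiratory burst oxidase that makes superoxide, and UCP, a mitochondrial uncoupling protein. Together they had 14 spots. In microtubers 7 were higher and 4 lower at late times, 11 of 14 against 48.5% of all spots, with a median change of 0.31. UCP fell on all 4 spots, by 0.87 to 1.07, and averaged -0.68 at late times and 0.39 at early times on the spot with the widest change (135776, adjusted p = 1.44e-05). PPO rose on 3 of 4 spots, with 0.49 ± 0.14 on the highest (adjusted p = 0.0158). RBOHC rose by 0.46 and 0.45 (adjusted p = 0.0157 and 0.0116). AOX rose on 1 of 2 spots, by 0.29 ± 0.10 (adjusted p = 0.0299), and the remaining called spot was of GRX2. Over the same times the photosynthesis markers named above had 10 spots higher and 5 lower of 26 tested, with PSBR higher on 8 of 9 spots and OEE2 lower on 5 of 5.

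For tubers against stolons 12 of these spots were tested, and 1 was higher and 2 lower, a share close to the 22.3% called over the array. RBOHC averaged 0.89 in tubers and -0.80 in stolons on the called spot, a change of 1.69 ± 0.50 (adjusted p = 0.0445). GRX2 averaged -1.32 in tubers and -0.01 in stolons on one spot and -1.18 in tubers and 0.07 in stolons on the other, changes of -1.31 ± 0.39 and -1.24 ± 0.35 (adjusted p = 0.0497 and 0.043). PPO had changes of 1.53 to 1.69 that were not called, with -0.60 to -0.90 in replicate 1 and 3.77 to 4.21 in replicate 2. UCP had -1.01 to -1.17, also not called. With the replicate block 2 spots were higher and 3 lower, against 21.8% and 17.9% of all spots. Leaving out 1 array at a time gave 0 to 3 calls, and 0 without the stolons of either replicate. Of large against small tubers no spot of the list was called, at the 0% of all spots given above, in the fit that did not use the pairing by replicate. Fitted without the stolon arrays and with the replicate block, 3 were called, where 19.6% of all spots were called.

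DHAR2, annotated as a separate gene and looked at after the values of DHAR were known, had 4 spots. In microtubers 2 of 4 were lower at late times, by 0.43 ± 0.14 and 0.50 ± 0.11 (adjusted p = 0.0274 and 0.00431), and the other 2 had -0.26 and -0.29. Over the array 48.5% of spots were called and 24.3% were lower. With the replicate as a block 3 were lower, where 49.4% of all spots were called and 24.8% were lower. Its sign was that of DHAR clone 2. For tubers against stolons the 3 spots tested had 0.37 to 0.48, positive in both replicates, and none was called.

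The genes whose arrays ran most like each member were found by Pearson's r over arrays, among 170 genes with complete spots in culture and 135 in plants. All arrays of a setting share the pool, and the r values are descriptions. DHAR in culture, as the mean of clones 2 and 3, was nearest to PPS1 (r = 0.98), GA2OX1, a gibberellin 2-oxidase (r = 0.92), and the ethylene receptor ERS (r = 0.91), over 10 arrays. CAT1 in culture, which here is clone 3 alone, had lower values, the highest being FLS (r = 0.63), MSP-II (r = 0.59) and TYKY2 (r = 0.57). Over the 5 group means these were 0.48, 0.35 and 0.48, with ranks of 23, 68 and 19 among the genes. In plants CAT1 clone 2 was nearest to eIF-5A-5, a translation factor (r = 0.97), PSBR (r = 0.95) and met3-2 (r = 0.94), over 12 arrays. DHAR clone 2 in plants was nearest to plc3 (r = 0.94), cTPT (r = 0.92) and dnaJ (r = 0.90), but over the 6 class means these were 0.64, 0.25 and -0.36, with ranks of 3, 32 and 117.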

How the data were processed

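The authors deposited log2 ratios of 22 arrays of 2 colours, and limma is named in the submitters' processing notes without a version. How the authors corrected background, normalized or filtered spots is not given in the sources used. Every deposited log2 value is the log2 of a ratio with 2 decimals. Values were used as deposited, except that growth chamber replicate 2 was multiplied by -1. All spots with values on at least 80% of arrays (8 of 10 in culture, 10 of 12 in plants, 18 of 22 together) and 1 or more per group were fitted by least squares with limma 3.58.1 moderation in R 4.3.3, missing values being handled spot by spot. The script was tested on simulated data, with noise independent between arrays and 50 spots changed at each size. For late against early times it called 26% of simulated log2 changes of 0.5 and 92% of those of 1. For tubers against stolons it called 4% of changes of 1, 30% of 2 and 52% of 4. For large against small tubers it called 6% of changes of 1 and 34% of 2. In the data the deviations of the tuber classes were correlated by replicate and many more spots were called. These rates therefore describe the simulated setting and need not hold for the fits here. A difference in plants that was not called is no sign that there was none. Adjusted p-values are Benjamini-Hochberg over all tested spots, and calls are under 0.05.

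Growth chamber replicate numbers mark sets of plants and also the dye, so they pair the samples. Deviations from class means correlated between 0.85 and 0.93 in the 10 pairs of tuber classes and between -0.47 and -0.37 in the 5 pairs with stolons, so a shared block does not describe the stolons. This limit holds for every block result that includes the stolons, above and below. In culture 4 of 10 pairs exceeded 0.1, and the numbers were not taken as pairs.

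The members, gene lists and tests were chosen with earlier results of these data known. All CAT1 and DHAR spots are given, of the redox list up to 4 genes per comparison with the smallest p, and the 3 genes of highest r for likeness. Alternatives were median-centred and quantile-normalized values, other coverage rules, array weights, gene means, the replicate block and leaving out each array.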

Additional observations from a re-analysis of the deposited data

How the results depend on the processing

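The number of arrays and the missing values limit these results: 3 of the 6 clones had too few values for a test in plants, and with 2 replicates per class the adjusted p-values there move with single arrays. Apart from fits that leave out an array, single-spot changes kept their direction and side of the threshold in 196 cases, became weaker in 7, stronger in 4 and reversed in 24. The 24 include the fits with the growth chamber direction turned, which reverses each change between growth chamber classes by construction. Otherwise the cause was not tested except where fewer spots or arrays explain it by construction.

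In culture 2 CAT1 spots were called for late against early times and for any difference, with 4 calls in pairs of times. With only spots valued on every array, or with means over the spots of a gene, each of these was 0. For any difference it was 1 without the 80% rule and 1 with the replicate block, and for late times against 2 days alone, chosen after seeing the data, it was 0. DHAR had 4, 4 and 18 calls, which with gene means, each gene then being a single value, were 0, 1 and 6. Against 2 days alone 2 DHAR spots were called, and CAT1 spot 154260 was reversed at -0.10. The redox list had 11 calls, and 4 with gene means. Leaving out 1 array gave CAT1 0 to 2 calls for late against early, 0 to 2 for any difference and 0 to 5 for pairs. It gave DHAR 3 to 4, 4 and 12 to 22, and the redox list 7 to 11. CAT1 spot 154260 then ranged from -0.071 to 0.098.

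For tubers against stolons the 1 CAT1 call was lost (0 calls) with median-centred values, quantile normalization, no 80% rule or gene means, while array weights and the replicate block each gave 2. The block also gave 1 CAT1 call for any difference and 9 for pairs. The redox list had 3 calls there, 1 with median-centred values or complete spots only, 0 with gene means and 5 with the block. Leaving out 1 array gave CAT1 0 to 2 calls and the redox list 0 to 3. Single DHAR spots then ranged, for tubers against stolons, from -0.14 to 0.21 (146279), -0.034 to 0.31 (147123) and -0.26 to 0.97 (151695). For large against small tubers they ranged from -0.73 to 0.14 (146279) and -0.70 to 0.15 (147123). With the block spot 152539 was reversed at -0.37. Without the stolon arrays and with the block, CAT1 had 2 calls for large against small tubers and the redox list 3, where 19.6% of all spots were called. Pairs of classes in that fit gave 1 call for CAT1 and 1 for DHAR, and the share over all spots was not worked out for them. The same holds for the other alternatives given here without such a share, so their counts cannot be set against the array. In culture the block brought DHAR clone 2 past the threshold on both spots for 20 against 10 days (adjusted p = 0.0414 and 0.0443), which made 20 DHAR calls in pairs of times. For any difference among the 5 times the block removed the call of CAT1 spot 152782 (adjusted p = 0.0489 without it and 0.0627 with it). It changed no other call of a member in culture.

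With the growth chamber direction turned, tubers minus stolons was 3.07 and 3.13 for CAT1 clone 2, -0.035 and -0.14 for DHAR clone 2 and -0.35 and -0.25 for DHAR clone 3. Large minus small was 0.78 and 1.18, 0.29 and 0.28, and -0.71 and -1.02 for the same clones. The difference between culture and plants was -1.19 and -1.67 for CAT1 clone 2, -0.68 and 0.17 for CAT1 clone 3 and 1.10 and 1.50 for DHAR clone 3. Quantile normalization over all arrays turned that difference to -0.56 and -0.30 for CAT1 clone 2 and to 0.052 and 0.060 for DHAR clone 3, and gave 2 redox calls in place of 0. Leaving out 1 array moved it from -0.26 to 1.00 and -0.31 to 1.69 for CAT1 clone 2, -0.63 to 0.23 and -0.66 to 0.19 for DHAR clone 2, and -1.08 to 0.0043 for spot 152539. The likeness of dnaJ to DHAR in plants was -0.36 over class means.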
